A study of Mus musculus with 38 samples.

Results

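Mbp encodes myelin basic protein, and 5 of the 38 libraries of this adBNST series had an Mbp level above 7300 CPM (CPM, a gene's count scaled to a common library total). The adBNST, the anterodorsal bed nucleus along the stria terminalis, is a forebrain region of the extended amygdala that was taken by microdissection from wild-type (WT) mice. Polyadenylated RNA was sequenced from stressed females (FS, 9 libraries), control females (FC, 10), stressed males (MS, 9) and control males (MC, 10), and stress was 6 weeks of chronic variable mild stress. The high-Mbp libraries were FS1, FS2, FC1, FC6 and MC3, where the digit is the replicate number in the label, and the other 33 libraries are their comparison. The labels give no age and do not say whether each library came from 1 animal, so a p-value measures only the spread between these libraries.

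Myelin is the lipid-rich sheath that oligodendrocytes wrap around axons, and the stria terminalis that gives the nucleus its name is a bundle of such fibres. Its compact layers are held together by MBP, and MAG and MOG sit at its inner and outer faces. The neurons of the adBNST are mostly GABAergic and carry peptides such as neuropeptide Y, somatostatin and enkephalin. In bulk RNA, fewer cells of a type and less RNA per cell cannot be told apart.

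The 5 libraries were chosen by their Mbp CPM, so every value that sets them against the others is a description and has no test. Mbp stood at 11613 CPM in FS2, 10848 CPM in FC6, 8963 CPM in FS1, 8894 CPM in FC1 and 8705 CPM in MC3. The other 33 libraries ran from 1861 to 6542 CPM with a median of 3277 CPM. MC3 was the member nearest to the threshold, and FC5 with 6542 CPM and MC6 with 6353 CPM were the nearest libraries outside it. Of the 19 female libraries 4 were high in Mbp, against 1 of the 19 male libraries (Fisher's exact test, two-sided, p = 0.34, adjusted p = 0.515 over 3 labels). The high-Mbp libraries made up 2 of 18 stressed libraries and 3 of 20 control libraries (Fisher's exact p = 1). By replicate number, 1 of the 18 libraries numbered from 6 was high in Mbp, against 4 of the 20 numbered up to 5 (Fisher's exact p = 0.344, adjusted p = 0.515). The labels do not say what the numbers stand for.

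The high-Mbp libraries were among the shallower ones and differed in several library measures. Their column totals were 9.06 to 22.6 M counts, against 15.9 to 84.8 M counts in the others, and 16247 to 17362 genes had a count, against 17360 to 19653. The ribosomal precursor Rn45s took 1.09% to 4.81% of their counts, against 0.121% to 2.79%. Transthyretin and the other choroid plexus genes, which mark tissue of the ventricle, summed to 31.2 to 42.3 CPM in the high-Mbp libraries and to 37.8 to 3302 CPM in the others, where MS5 was the highest.

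A name such as myelin-rich fitted these libraries only in part. A gene was counted as higher when each of the 5 libraries exceeded each of the other 33. Over all 16309 genes that passed the filter on low counts, 593 were higher by this count (3.64%) and 1370 were lower (8.4%), and the median log2 ratio was -0.20. On library sizes scaled by TMM (the trimmed mean of M values, edgeR's normalization) the split was 1125 higher and 676 lower, with a median of -0.03. Of the 30 genes of myelin and mature oligodendrocytes, all of which passed the filter, 4 were higher, 26 overlapped and none was lower, and 24 had a ratio above 0. Their median log2 ratio was 0.72. The 4 were Mbp itself, Mobp, Plekhb1 and Ppp1r14a. The 29 genes without Mbp summed to 12964 to 16792 CPM in the high-Mbp libraries and to 4259 to 14987 CPM in the others, so the sums overlapped. Within the libraries numbered up to 5, where 4 high-Mbp libraries stood against 16 others, the median of the list was 0.30, next to -0.16 for all genes.

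**Figure D1:**
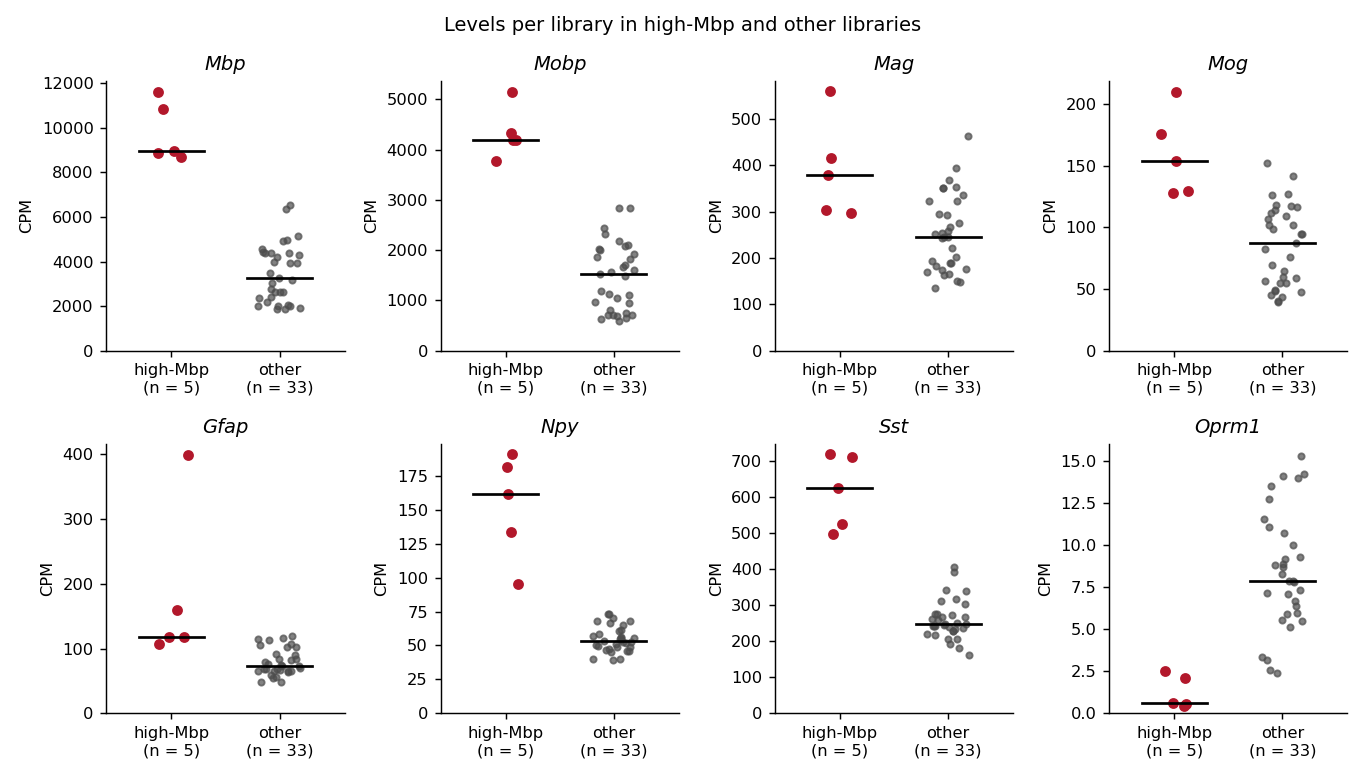
CPM per library for 8 genes in the 5 high-Mbp libraries (left, red) and the other 33 (right, grey); lines are medians and every y axis starts at 0. Mbp, Mobp, Npy and Sst do not overlap between the sets, whereas Mag, Mog, Gfap and Oprm1 do.

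Mobp, a small basic protein of the compact myelin sheath, had a ratio close to that of Mbp. It stood at 4334 CPM in FS1, 5138 CPM in FS2, 4200.4 CPM in FC1, 3766 CPM in FC6 and 4192 CPM in MC3, against 594 to 2847 CPM (median 1517) in the others. Its log2 ratio was 1.47, next to 1.45 for Mbp. Plekhb1, a pleckstrin-homology protein abundant in oligodendrocytes, had 1046 to 1305 CPM in the high-Mbp libraries and 263 to 752 CPM in the others. Ppp1r14a, an inhibitor of myosin phosphatase, had 31.9 to 50.3 CPM in the high-Mbp libraries and 5.37 to 21.6 CPM in the others. For these genes all 5 high-Mbp libraries lay above the whole range of the others.

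Mag and Mog, which encode adhesion proteins of the myelin surface, did not separate the sets. Mag was 297 CPM in FS1, 379 CPM in FS2, 304 CPM in FC1, 561 CPM in FC6 and 417 CPM in MC3. The other libraries ran from 136 to 464 CPM around a median of 247 CPM, so FC6 alone exceeded their range, and the log2 ratio was 0.62. Mog was 129 CPM in FS1, 154 CPM in FS2, 128 CPM in FC1, 175 CPM in FC6 and 210.3 CPM in MC3. The others held 39.5 to 152 CPM around a median of 87.0 CPM, so FS2, FC6 and MC3 lay above them and FS1 and FC1 within their range (log2 ratio 0.82). Aspa (aspartoacylase), Ugt8a (which makes galactosylceramide, the chief myelin lipid), Anln and Ermn had ratios from -0.30 to -0.10. Ugt8a stood at 91.9 to 106 CPM in the high-Mbp libraries and at 33.1 to 255 CPM in the others, whose median was 118 CPM. For each myelin gene the 5 libraries with the highest CPM were noted. They were the 5 high-Mbp libraries for 4 of the 30 genes, and for 5 genes none of the 5 was among them. By the mean log2 level of the whole list, MC3, FC6, FS2, FS1 and FC1 ranked 1, 2, 4, 8 and 10 of the 38 libraries.

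Most of the named genes with the largest ratios were not on the myelin list, Ppp1r14a apart. Among the higher ones, Cd4 had 56.4 to 133 CPM in the high-Mbp libraries and 5.23 to 47.8 CPM in the others (log2 ratio 2.08). Lars2, the mitochondrial leucyl-tRNA synthetase, had 626 to 1146 CPM in the high-Mbp libraries and 104 to 620.1 CPM in the others. Ptms (parathymosin) had 908 to 1570.2 CPM in the high-Mbp libraries and 266 to 499 CPM in the others. Pcp4, a small calmodulin regulator, had 510.2 to 877 CPM in the high-Mbp libraries and 107 to 464 CPM in the others. Gp1bb and Fxyd2, a subunit of the platelet glycoprotein Ib complex and a regulator of the sodium pump, had log2 ratios of 1.94 and 1.85.

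Among the lower ones, Zbed6 had 2.32 to 5.63 CPM in the high-Mbp libraries and 23.7 to 127 CPM in the others (log2 ratio -4.42). Zbed6 encodes a transcriptional repressor and lies within another gene, Zc3h11a, so its count is uncertain. Lnpep, a peptidase that cleaves oxytocin and vasopressin, had 3.31 to 15.0 CPM in the high-Mbp libraries and 18.6 to 85.8 CPM in the others. Usp9x, a deubiquitinase, had 26.4 to 62.8 CPM in the high-Mbp libraries and 106 to 353 CPM in the others, and Syt10, a synaptotagmin, had 1.92 to 5.00 CPM in the high-Mbp libraries and 6.33 to 35.5 CPM in the others.

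The ratios followed transcript length and base composition across the transcriptome. The 587 higher genes with an annotated transcript had a median length of 1814 bases and 56.3% GC. The 1363 lower genes had a median of 4764 bases and 46.0% GC. Over all 16146 genes with an annotation the medians were 3061.5 bases and 50.2%. The median log2 ratio was 0.32 for transcripts up to 1000 bases and -0.70 for those over 8000 bases. It was -0.57 for transcripts of at most 40% GC and 0.16 for those above 55%. Of the transcripts over 8000 bases, 26.5% were lower and 0.339% were higher. Across genes, Spearman's rho of the ratio was -0.415 with length and 0.427 with GC content, as a description over genes that share the same libraries.

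**Figure D2:**
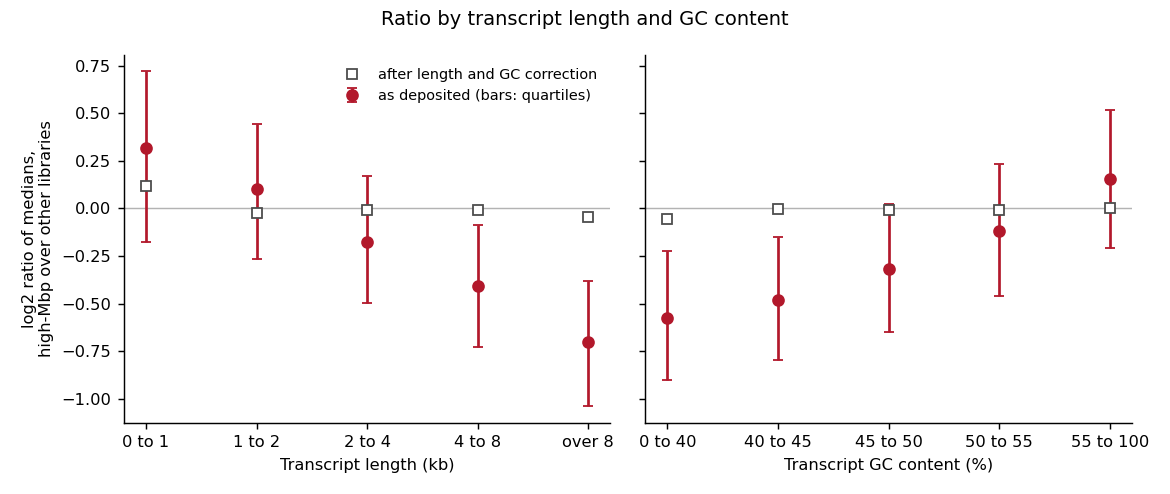
Median log2 ratio of high-Mbp over other libraries by transcript length (left) and GC content (right), with quartile bars; open squares are medians after each library was corrected for length and GC. The median runs from 0.32 for the shortest class to -0.70 for the longest.

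The same pattern appeared within the myelin list, where rho was -0.374 with length and 0.468 with GC over 30 genes. Ugt8a and Ermn have annotated transcripts of 38% GC, Mobp of 53.3% and Ppp1r14a of 61.7%. After the median deviation of genes of like length and GC was taken off in each library, the median over all genes was -0.01 and the myelin list kept a median of 0.57, with 6 of 30 genes higher. Of the lower genes described first, Lnpep and Usp9x then overlapped, and Zbed6 and Syt10 did not. The corrected log2 ratio of Mbp was 1.72, that of Mobp 1.56 and that of Mag 0.30, and Mag still overlapped. This correction was chosen after the data were seen, and it left 712 genes higher (4.96%) and 542 lower (3.78%) of 14342.

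Each library was also compared with the median library. Its deviation over 14342 genes had a Spearman correlation with transcript length of -0.43 in FS1, -0.49 in FS2, -0.34 in FC1, -0.33 in FC6 and -0.43 in MC3. The other libraries ran from -0.51 to 0.41 with a median of 0.14. The correlation with GC content was 0.24 to 0.58 in the high-Mbp libraries, and -0.77 to 0.61 with a median of -0.04 in the others. The high-Mbp libraries thus sat together at one end of the length scale, and 1 library outside the choice, MC7, went as far.

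**Figure D3:**
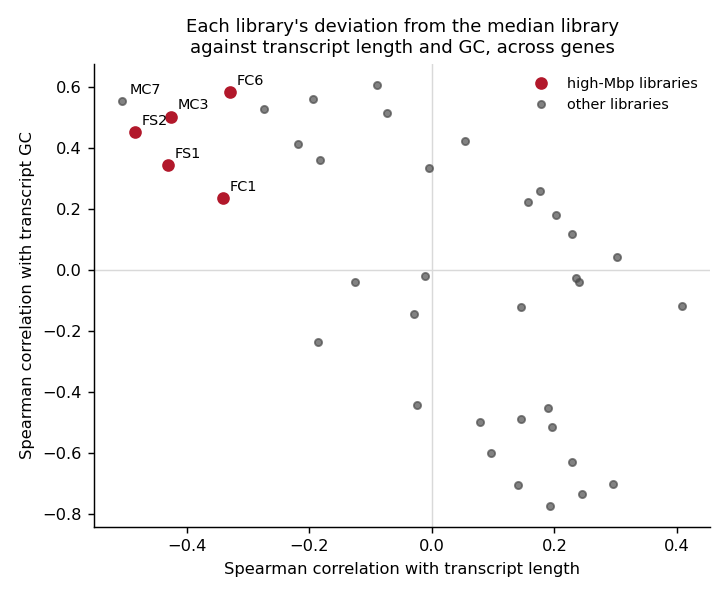
Spearman correlation of each library's deviation from the median library with transcript length (x axis) and GC content (y axis), across genes. The 5 high-Mbp libraries (red) lie at -0.33 or below on the length axis, where MC7 lies at -0.51.

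MC7 was singled out after these values were seen, as the library of the 33 with the lowest correlation with transcript length. Its ranks for genes with short or long transcripts therefore follow in part from that choice. Its Mbp level was 2051 CPM, rank 27 of the 33 other libraries from the top, and its Mobp level of 689 CPM was rank 30. Of the 33, MC7 was the highest for Pcsk1n with 781 CPM, Nrgn with 579.9 CPM, Rpl37 with 221 CPM and Rps28 with 56.9 CPM. It was second for Npy with 72.9 CPM and for Sst with 393 CPM, and it was the lowest for Zbed6 with 23.7 CPM. Penk, with 955 CPM at rank 12, and Pcp4, with 169 CPM at rank 19, did not share this order.

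Npy encodes neuropeptide Y, a peptide that is often made by GABAergic neurons. It reached 191 CPM in FS1, 182 CPM in FS2, 162 CPM in FC1, 133 CPM in FC6 and 95.0 CPM in MC3. The other libraries held 39.3 to 73.2 CPM around a median of 53.6 CPM. The sets did not overlap, the log2 ratio was 1.58 (3.00-fold), and within the libraries numbered up to 5 it was 1.70. After the length and GC correction it was 1.25 and the sets overlapped. Sst, the gene of somatostatin, which marks a class of inhibitory neurons, had 711 and 719 CPM in FS1 and FS2, 623 and 524 CPM in FC1 and FC6 and 497 CPM in MC3. The others held 162 to 406 CPM around 246 CPM. All 5 exceeded the range of the others, and the corrected log2 ratio was 0.81, against 1.34 before, with overlap.

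The peptide genes did not share 1 direction. Of 25 neuropeptide genes 23 passed the filter. Npy and Sst were the 2 that were higher and none was lower, beside 3.64% and 8.4% of all genes. The median log2 ratio of the 23 was 0.06 as deposited and -0.29 after correction, and their summed level was 2306 to 4097 CPM in the high-Mbp libraries and 1247 to 2159 CPM in the others. Penk (proenkephalin) contributed most and had 2647 CPM in FS1, 1980.4 CPM in FS2, 1974 CPM in FC1, 1985 CPM in FC6 and 1102 CPM in MC3, against 439.6 to 1322 CPM (median 856) in the others. MC3 alone lay inside that range.

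Most receptors of peptides had ratios below 0. Of 26 neuropeptide receptors 23 had a ratio below 0, with a median of -0.62 beside -0.20 for all genes. Over all 16309 genes 5930 had a ratio above 0. Without overlap 1 receptor was higher and 1 was lower, beside 3.64% and 8.4% of all genes. Oprm1, the mu-opioid receptor, was 0.618 CPM in FS1, 0.460 CPM in FS2, 2.12 CPM in FC1, 2.52 CPM in FC6 and 0.552 CPM in MC3. The others held 2.42 to 15.3 CPM around 7.87 CPM, so only FC6 reached their range (log2 ratio -2.91). The 11 granins and processing enzymes lay near all genes, with 4 ratios above 0 and a median of -0.22, and 1 was higher and 1 was lower. Oprd1, the delta-opioid receptor, had 1.65 to 5.22 CPM in the high-Mbp libraries and 5.23 to 12.6 CPM in the others. Pcsk1, a convertase that cuts peptide precursors, had 7.82 to 16.7 CPM in the high-Mbp libraries and 19.7 to 56.8 CPM in the others, whereas Pcsk1n, which encodes its inhibitor, had 902 to 1159 CPM in the high-Mbp libraries and 177 to 781 CPM in the others. After correction Oprd1 and Pcsk1 overlapped and Pcsk1n did not. The Pcsk1 transcript is annotated with 5040 bases and 40.6% GC and that of Pcsk1n with 2193 bases and 57.3%.

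Markers of neuron classes went both ways. Of 13 genes of striatal projection neurons, all 13 had ratios above 0 (median 0.75), and 1, the dopamine receptor Drd2, was higher without overlap, with 161 to 196 CPM against 47.3 to 141 CPM in the others. Ppp1r1b, a dopamine-regulated phosphoprotein of those neurons, was 1652 CPM in FS1, 1534 CPM in FS2, 1231 CPM in FC1, 1608 CPM in FC6 and 687 CPM in MC3, against 180.4 to 768 CPM (median 468) in the others. The 13 genes summed to 3918 to 6991 CPM, against 1432 to 6458 CPM in the others. Those others differed by number set, with 2876 to 6458 CPM up to 5 and 1432 to 3612 CPM from 6. Within the libraries numbered up to 5 the median log2 ratio of the list was 0.26, next to -0.16 for all genes. Nrgn (neurogranin, of forebrain dendrites) had 946 to 1527 CPM in the high-Mbp libraries and 299.9 to 579.9 CPM in the others, Rbfox3 (the NeuN antigen) 261 to 367 CPM in the high-Mbp libraries and 164 to 238 CPM in the others, and Hcn2, a pacemaker channel, 154 to 235 CPM in the high-Mbp libraries and 55 to 112 CPM in the others. These 3 genes did not overlap between the sets, and after correction Nrgn and Hcn2 still did not, whereas Rbfox3 and Drd2 did. The lists they came from went both ways. Ratios were below 0 for 5 of 12 cortical glutamatergic genes, which include Nrgn, and for 4 of 11 pan-neuronal genes, which include Rbfox3. So were those of 7 of 12 KCNQ, HCN and T-type calcium channel genes, which include Hcn2. Of these lists 1, 2 and 1 genes were higher without overlap, beside 3.64% of all genes. Of 17 immediate early genes, which neurons switch on after activity, 16 had ratios above 0 (median 0.54), and Arc was higher without overlap before the correction though not after it, with 112 to 181 CPM against 20.1 to 109 CPM in the others.

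Most genes of the nucleus itself had ratios below 0, as did most of all genes. Of 12 genes of the BNST and extended amygdala 10 had ratios below 0, and all 12 overlapped. Their median was -0.57, beside -0.20 for all genes, of which 5930 of 16309 had a ratio above 0. Within the libraries numbered up to 5 it was -0.23, next to -0.16 for all genes. After correction it was -0.28, next to -0.01. Prkcd, a kinase gene that marks a class of central extended amygdala neurons, was 9.26 CPM in FS1, 13.2 CPM in FS2, 8.23 CPM in FC1, 18 CPM in FC6 and 24.9 CPM in MC3, against 23.7 to 116 CPM (median 46.8) in the others. Gad1 and Gad2, which make GABA, had 447 to 637 CPM and 583 to 925 CPM in the high-Mbp libraries, and 540.2 to 854 CPM and 761 to 1438 CPM in the others. Their log2 ratios were -0.52 and -0.70 as deposited and -0.18 and 0.01 after correction. Slc17a6, the glutamate transporter of subcortical neurons, had 2.08 to 17.1 CPM in the high-Mbp libraries and 5.96 to 67.7 CPM in the others. What part the depth, the Rn45s share and the correlation with transcript length have in these values was not tested.

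Other glia were not uniformly higher. Gfap, the filament of fibrous astrocytes, was 118 CPM in FS1, 399 CPM in FS2, 108 CPM in FC1, 118 CPM in FC6 and 159 CPM in MC3. The others held 48.2 to 119.6 CPM around 73.8 CPM. FS2 and MC3 stood above that range and the other 3 stood near its top. Of 18 astrocyte genes 3 were higher, among them S100b (164 to 229 CPM in the high-Mbp libraries and 63.7 to 141 CPM in the others) and Aldoc (812 to 1320 CPM in the high-Mbp libraries and 449 to 756 CPM in the others). A further 3 were lower, among them the bicarbonate transporter Slc4a4 with 94.4 to 164 CPM in the high-Mbp libraries and 202 to 362 CPM in the others. After correction 3 astrocyte genes were higher and none was lower. Over all genes 3.64% were higher and 8.4% lower as deposited, and 4.96% and 3.78% after correction. None of 15 microglial, 13 endothelial, 9 mural or 9 fibroblast genes separated the sets. Their median log2 ratios were -0.30, -0.42, 0.00 and -0.97 as deposited, beside -0.20 for all genes. After correction they were -0.57, -0.25, 0.17 and -0.62, next to -0.01. As deposited all 9 fibroblast ratios were below 0, with sums of 66 to 104 CPM in the high-Mbp libraries and 90 to 359 CPM in the others. The microglial genes summed to 200.0 to 541 CPM in the high-Mbp libraries and to 227 to 612 CPM in the others.

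The oligodendrocyte lineage genes outside mature myelin were split as deposited. Bcas1, which marks oligodendrocytes as they begin to myelinate, was 666 CPM in FS1, 709 CPM in FS2, 716 CPM in FC1, 657 CPM in FC6 and 696 CPM in MC3, against 113 to 454 CPM (median 249) in the others, so the members were close to each other and above all others. Olig1, a lineage transcription factor, had 200.4 to 275 CPM in the high-Mbp libraries and 92.4 to 161 CPM in the others, whereas Sox10 (139 to 192 CPM in the high-Mbp libraries and 50.3 to 154 CPM in the others) and Olig2 (45.4 to 78.1 CPM in the high-Mbp libraries and 22.9 to 56.0 CPM in the others) overlapped. Tnr, an extracellular matrix gene of precursors with a transcript of 12202 bases, was lower with 12.3 to 28.3 CPM in the high-Mbp libraries and 31.5 to 131 CPM in the others. Of the 14 genes of precursors and differentiating cells 2 were higher and 2 lower as deposited (median -0.25), beside 3.64% and 8.4% of all genes. After correction 2 were higher, Bcas1 and Sox10, and none was lower (median 0.24). Of 19 genes of cholesterol synthesis, which myelin needs in bulk, none was higher and 3 were lower, among them the squalene epoxidase gene Sqle with 24.9 to 29.7 CPM in the high-Mbp libraries and 35.5 to 58.4 CPM in the others. After correction 1 was lower, where 3.78% of all genes were.

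Housekeeping classes with short transcripts mostly had ratios above 0, in 15 of 16 ribosomal protein genes and 13 of 15 genes of oxidative phosphorylation. Of the 16 ribosomal protein genes 6 were higher and none was lower (median log2 ratio 0.91, median transcript 789.5 bases). Over all genes 3.64% were higher and 8.4% lower, and the median log2 ratio was -0.20. Rpl37 had 245 to 321 CPM in the high-Mbp libraries and 96.8 to 221 CPM in the others. Of the 15 genes of oxidative phosphorylation 4 were higher and 1 was lower, and Cox6c had 172 to 222 CPM in the high-Mbp libraries and 60.4 to 122 CPM in the others. Of 5 long nuclear RNAs 2 were lower, Meg3 with 5046 to 6762 CPM against 6857 to 14847 CPM in the others and Snhg11 with 1149.6 to 2978 CPM against 3635 to 6456 CPM in the others. After correction the ribosomal median was 0.46, with 5 of 16 genes higher. The median for oxidative phosphorylation was then 0.47, with 7 of 15 higher. None of either list was lower, beside 4.96% of all genes higher and 3.78% lower. Neither of those RNAs was lower after correction.

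The 33 libraries that were not chosen allowed a test of which genes move with Mbp. In edgeR's quasi-likelihood model with a mean for each group and a term for the number set, the slope is the log2 change of a gene per doubling of Mbp CPM. At an adjusted p under 0.05, 1021 of 16466 genes rose with Mbp (6.2%) and 1065 fell (6.47%), and the median slope over all genes was 0.0014. Without MC6, the library with the second highest Mbp of the 33, 474 rose and 275 fell. Within the 17 libraries numbered from 6 the counts were 477 and 325, and within the 16 numbered up to 5 they were 19 and 0.

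Here the myelin genes did rise together. All 29 myelin genes other than Mbp rose, with slopes of 0.45 to 1.07 and a median of 0.77, and 28 rose without MC6. Within the libraries numbered up to 5 all 29 slopes were above 0 with a median of 0.59, and 5 passed. Mobp rose by 1.07 ± 0.0759 (SE), Mag by 0.82 ± 0.0738 and Mog by 0.79 ± 0.0706. Mag and Mog, which did not separate the 5 chosen libraries, thus rose with Mbp in the others (adjusted p = 8.01e-10 for Mag and 7.25e-10 for Mog by edgeR's quasi-likelihood test). Hapln2, a link protein of the node of Ranvier, rose by 0.92 ± 0.0683 and the regulator of myelin genes Myrf by 0.81 ± 0.067. Aspa, whose ratio between the sets was -0.27, rose by 0.73 ± 0.116.

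Genes outside that list were among those with the smallest p-values. Prr18 rose by 0.92 ± 0.0511, Gltp, a carrier of glycolipids, by 0.66 ± 0.0415 and Bcas1 by 0.99 ± 0.0673. Of 8 genes of myelin lipid synthesis 7 rose and none fell, where 6.2% of all genes rose and 6.47% fell. Fa2h, Ugt8a and Aspa of these 8 are also on the myelin list, so they were already counted there. Fa2h, which hydroxylates the fatty acids of myelin lipids, rose by 0.84 ± 0.0526 and the sulfatide enzyme Gal3st1 by 0.57 ± 0.09. The ceramide synthase Cers2 rose by 0.40 ± 0.0484 and the elongase Elovl1 by 0.45 ± 0.0738. Sox10 rose by 0.79 ± 0.0783, Olig1 by 0.39 ± 0.0677 and Olig2 by 0.45 ± 0.0785. Each gene given with a slope in this paragraph also passed without MC6.

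The start region of Mobp, the myelin gene with the steepest slope of the list, is set beside that of Npy, whose slope lay at the threshold of the test. Both sequences are RefSeq's on GRCm38.p6 and run from 250 bases before to 50 after the annotated start, at chr9:120149492-120149791 (plus strand) for Mobp and chr6:49822460-49822759 (plus strand) for Npy. Capitals mark the core ACAAAG or ACAATG that SOX factors such as SOX10 recognise, or its reverse complement CTTTGT or CATTGT.
Mobp: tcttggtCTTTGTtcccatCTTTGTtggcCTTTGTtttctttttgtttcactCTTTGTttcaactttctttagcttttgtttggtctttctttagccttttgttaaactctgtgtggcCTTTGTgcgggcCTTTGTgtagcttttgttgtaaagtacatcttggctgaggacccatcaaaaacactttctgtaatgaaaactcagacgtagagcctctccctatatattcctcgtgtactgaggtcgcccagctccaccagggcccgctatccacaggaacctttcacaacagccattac
Npy: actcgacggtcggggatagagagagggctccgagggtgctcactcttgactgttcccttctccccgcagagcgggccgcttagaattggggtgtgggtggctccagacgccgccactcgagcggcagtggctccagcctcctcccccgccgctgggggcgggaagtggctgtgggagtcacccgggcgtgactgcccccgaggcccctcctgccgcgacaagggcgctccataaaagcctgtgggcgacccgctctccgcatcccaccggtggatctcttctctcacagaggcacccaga
The Mobp region held 6 matches, all CTTTGT, and had 43.3% GC, and the Npy region held none and had 68.0% GC. The region of Plekhb1, a myelin gene that separated the sets and rose with Mbp, held none either, at chr7:100662345-100662644 (minus strand), 1 of 2 starts that the table lists for it. Either core was present in 10 of the 23 myelin genes with a promoter in the table (43.5%), in 28.8% of all 27025 genes and in 20.4% of the 12715 genes tested. A match describes the letters and is not evidence of binding.

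Neuropeptide genes did not stand out from all genes in this fit. Of 23 neuropeptide genes none rose and 2 fell, where 6.2% of all genes rose and 6.47% fell. Neither of these 2 passed without MC6. Without the number-set term 2 rose and 10 fell. Npy had a slope of 0.25 ± 0.0893 (adjusted p = 0.0548 by edgeR's quasi-likelihood test) and Sst one of 0.14 ± 0.0995 (adjusted p = 0.372 by edgeR's quasi-likelihood test), and neither passed. The call for Npy lay at the threshold: of 44 other settings 11 called it, with adjusted p = 0.0418 by DESeq2 and 0.047 by limma voom, and the range over all of them was 0.0159 to 0.671. The peptide Nts (neurotensin) fell by 0.55 ± 0.134. Gfap had a slope of 0.40 ± 0.144 (adjusted p = 0.0592 by edgeR's quasi-likelihood test), and without MC6 it was 0.68 and passed (adjusted p = 0.0194 by edgeR's quasi-likelihood test). Among 18 astrocyte genes 4 rose and none fell, and S100b rose by 0.39 ± 0.0657, the glutamine synthetase gene Glul by 0.27 ± 0.0637, the neurotensin receptor Ntsr2 by 0.34 ± 0.0771 and Aldoc by 0.21 ± 0.0657.

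Some genes of GABAergic neurons and of the nucleus fell with Mbp. Gad1 fell by 0.25 ± 0.0549 and Gad2 by 0.32 ± 0.0754, and both passed without MC6 (adjusted p = 0.0498 for Gad1 and 0.0207 for Gad2 by edgeR's quasi-likelihood test). Slc32a1, the vesicular GABA transporter, fell by 0.32 ± 0.0882 and Nos1, the neuronal nitric oxide synthase, by 0.34 ± 0.107. Gad1, Gad2 and Slc32a1 were the 3 of 11 genes of the GABAergic list that passed, and none of the list rose. Slc32a1 did not pass without MC6, and Gad1 and Gad2 did not pass without the number-set term. Nos1 and Chodl, which fell by 0.68 ± 0.115, were the 2 of 15 of the interneuron list, where none rose, and of these 2 only Chodl passed without MC6. Of 12 genes of the BNST and extended amygdala 4 fell and none rose, with slopes of -0.57 ± 0.131 for Prkcd, -0.55 ± 0.134 for Nts and -0.70 ± 0.179 for the oestrogen receptor Esr1 among them. Of 26 neuropeptide receptors 8 fell and none rose, among them the receptors Npy2r (-0.42 ± 0.1), Sstr1 (-0.51 ± 0.1) and Oprl1 (-0.45 ± 0.0918). Without MC6 none of the receptors passed, and of the 4 nucleus genes Prkcd alone did. Beside these list counts, 6.2% of all genes rose and 6.47% fell in the fit on the 33 libraries.

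Some genes of peptide processing fell as well. Of 11 granins and processing enzymes 4 fell and none rose, where 6.47% of all genes fell and 6.2% rose. The 4 included secretogranin Scg2 (-0.45 ± 0.105), chromogranin Chgb (-0.27 ± 0.0584) and the amidating enzyme Pam (-0.33 ± 0.058). Chgb and Pam passed without MC6 and Scg2 did not. Ahi1 and Gpr101, among the genes with the smallest p, had slopes of -0.56 ± 0.0763 and -0.64 ± 0.0941. Of the 17 immediate early genes 4 rose and none fell, with Arc at 0.94 ± 0.247 and Nr4a1 at 0.68 ± 0.234, and none passed without MC6. The nuclear RNAs Malat1 and Neat1 rose by 0.57 ± 0.136 and 0.64 ± 0.0986, and without MC6 Malat1 did not pass. No gene of the ribosomal list passed in either direction.

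**Figure D4:**
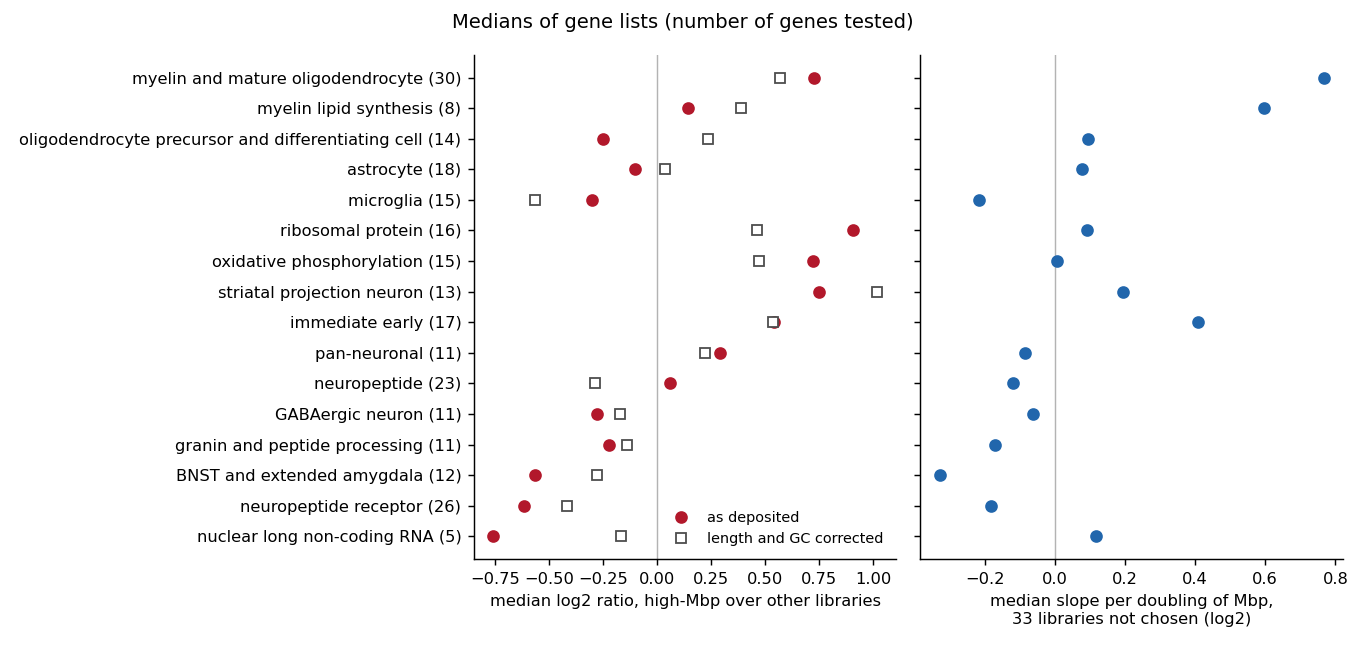
Median log2 ratio of gene lists between the 5 high-Mbp libraries and the others (left, filled as deposited, open after length and GC correction) and median slope on Mbp in the 33 libraries not chosen (right). The myelin list stands at 0.72 and 0.57 on the left and at 0.77 on the right, and the ribosomal list at 0.91 and 0.46 and at 0.09.

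The 2 sets of values share the 33 libraries, so they are given side by side only. For Npy the log2 ratio between the sets was 1.58 and the slope was 0.25. For Sst these values were 1.34 and 0.14, for Mobp 1.47 and 1.07, and for Mag 0.62 and 0.82.

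The labelled comparisons were fitted on all 38 libraries and again without the 5, since 4 of the 5 were female. No gene passed for stress in females, for stress in males or for their interaction (0% of 16309 in each direction, edgeR's quasi-likelihood test), with or without them. At an unadjusted p under 0.05 stress had 308 of 16309 genes in females and 655 in males, and the interaction had 736. Without the 5 these counts were 310, 1097 and 780 of 16467 genes. With no effect at all, a share of about 0.05 of the genes would fall under that p. Between males and females 23 genes were higher in males (0.141%) and 12 were lower (0.0736%), and 24 of these 35 were among the 29 called without the 5.

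Estimates for Npy, Sst and Gfap moved when the 5 were left out. For Npy the log2 fold change, male minus female, was -0.67 ± 0.197 on all libraries (unadjusted p = 0.0016, adjusted p = 0.244 by edgeR's quasi-likelihood test) and -0.14 ± 0.077 without the 5 (adjusted p = 1 by the same edgeR test). The male libraries held 39.3 to 95.0 CPM and the female ones 46.7 to 191 CPM, and without the 5 the ranges were 39.3 to 73.2 CPM in males and 46.7 to 70.0 CPM in females. Sst changed likewise, with -0.52 ± 0.177 and -0.13 ± 0.091. For Gfap the female stress value was 0.48 ± 0.283 with FS2 and the other 4 and -0.08 ± 0.177 without them. None of these values passed the test.

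**Figure D5:**
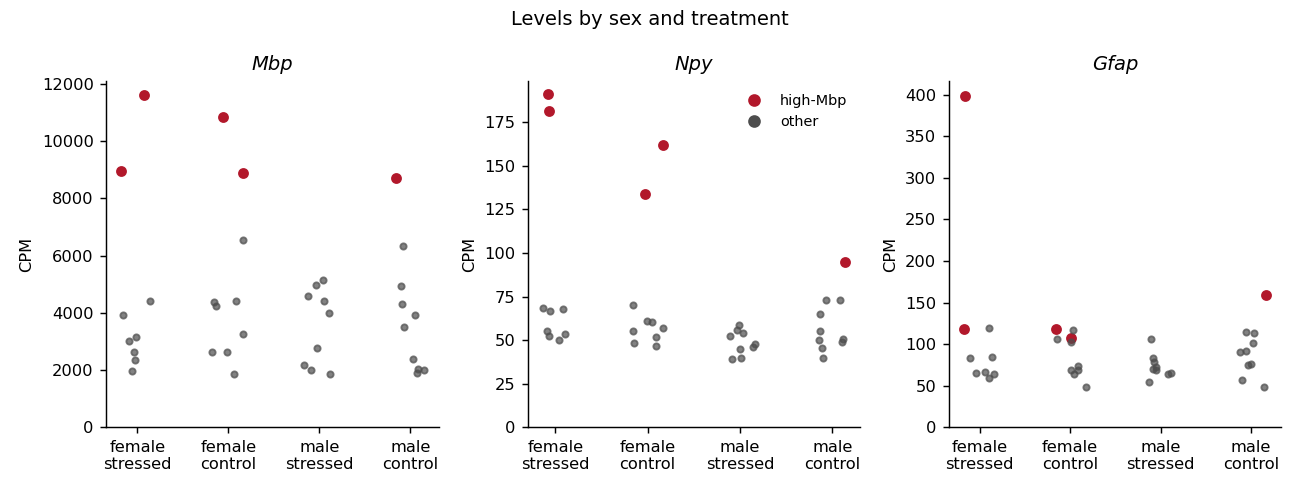
CPM of Mbp, Npy and Gfap per library by sex and treatment, with stressed left of control and the high-Mbp libraries in red; the y axes start at 0. Without the red points the female Npy values run from 46.7 to 70.0 CPM.

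The myelin list was also set over the labelled contrasts, as a description, since the 5 libraries were chosen on Mbp, a gene of that list. For stress in males 24 of its 30 genes had a value below 0 on all libraries (median -0.16), against 15 of 30 without the 5 (median 0.00). For stress in females 28 and 30 were below 0, with medians of -0.17 and -0.31. For the interaction 19 of 30 were above 0 (median 0.04), and 29 of 30 without the 5 (median 0.33). Male minus female, 23 were below 0 (median -0.07), and without the 5 libraries 28 were above 0 (median 0.10). No gene of the list passed in any of these fits by edgeR's quasi-likelihood test.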

How the data were processed

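Gene counts were deposited by the authors as 1 table of raw counts, with 25230 genes and 38 libraries. Per the labels' protocols, RNA was extracted from microdissected adBNST, poly-A selected and made into stranded libraries. STAR, featureCounts and the mm10 build are named in the submitters' processing notes, without versions, and the strand setting is not given in the sources used here. The design text in GEO models sex, condition and their interaction.

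The members and gene lists were chosen with earlier results of these data known. CPM used column totals. Ratios are of medians with 0.5 CPM added. Libraries were set apart by Mbp above 7300 CPM, so 5 against 33 has no test. Slopes and label contrasts used edgeR 4.0.16 (R 4.3.3): TMM, edgeR's default low-count filter, quasi-likelihood test, Benjamini-Hochberg over all genes, adjusted p under 0.05. The slope fit used the 33 libraries, with group means, a term for replicate numbers up to 5 or from 6, and log2 Mbp CPM. Label contrasts used all 38. DESeq2 1.42.0 and limma voom 3.58.1 were alternatives. The tests were checked on simulated counts.

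Transcript length and GC came from GENCODE M21 and matched 16146 of 16309 genes tested. The per-library correction subtracted the median deviation within 100 bins of length and GC. It, the per-library correlations, the covariate and offset fits and the leaving out of single libraries from the slope were chosen after seeing the data. The lowest chi-square between 2 libraries of a group was 8.19 per gene, so none was a copy of another library of its own group.

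Genes were named by rule: the 10 most different in each direction (no overlap, at least 5 CPM in the higher set), up to 4 of each list, the 10 smallest p per direction for the slope, and a panel of 22 genes. Some were left out for length. A few genes, and a choice of libraries by a gene other than Mbp, are not reported here.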

Additional observations from a re-analysis of the deposited data

Results flagged for a closer look

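In groups of 9 or 10 libraries, 112 values were screened for a highest or lowest library far from the rest of its own group by Dixon's criterion. Chance marks about 1 in 20 groups, and 13 were marked. Of these, 5 lay in high-Mbp libraries. MC3 was far above the other control males for Mobp (4192 CPM, against 594 to 2446 CPM), Mog (210.3 CPM, against 39.5 to 127 CPM) and Rbfox3 (286 CPM, against 164 to 219.8 CPM). FS2 stood at 399 CPM for Gfap, where the other stressed females held 59.2 to 119.6 CPM. FC6 had 4.81% of its counts in Rn45s, and the other control females had 0.144% to 2.45%.

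The other 8 lay outside the high-Mbp libraries. MC7 had 2.29 CPM of Cort, the gene of cortistatin, and 209 CPM of Pdyn, which encodes prodynorphin. FC10 had 199 CPM of Nos1. MS4 had 16.1 CPM and MC9 15.8 CPM of Slc17a7, the glutamate transporter of cortical neurons. MS5 had 2869 CPM and MC9 28.9 CPM of Ttr, the choroid plexus marker. MC1 had the largest total, 84.8 M counts. What lies behind these values was not tested.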

How the results depend on the processing

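The description of 5 against 33 depends on scaling and on which libraries enter. On TMM library sizes 1125 genes were higher and 676 lower. Among libraries numbered up to 5, 1560 were higher and 3160 lower, where fewer libraries make overlap less likely. The length and GC correction left 542 lower. Leaving out 1 high-Mbp library gave 605 to 780 higher and 1439 to 1815 lower, where by this way of counting neither number can fall.

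For the slope, leaving out 1 library gave 474 to 1275 rising and 275 to 1344 falling genes, and the lowest values came without MC6. The next lowest counts were 823 and 798. Without the number-set term 3611 rose and 3539 fell. Numbers up to 5 gave 19 and 0, and numbers from 6 gave 477 and 325. Library length and GC covariates gave 1829 and 1735, and length and GC offsets 1810 and 1421. The cause of these shifts was not tested. The slope of Sst changed sign without the number-set term (-0.10).

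Replicate numbers did not pair the libraries beyond their number set. Same-number deviations correlated over 0.1 in 41 of 55 pairs, and 7 of 38 libraries correlated best with their own number. The median correlation was 0.275 for the same number and 0.309 for another number of the same set. Across the number sets it was -0.260. With the replicate block 545 genes rose and 512 fell, no gene passed for stress, and 36 differed by sex. DESeq2 called 1 gene for stress in males and 64 by sex. Without the high-Mbp libraries the estimate for Gfap changed sign for stress in females (-0.080) and male minus female (0.0029), and neither passed by edgeR's quasi-likelihood test. For Mbp it changed sign for stress in males (0.025) and male minus female (0.059), a shift that follows from leaving out libraries chosen on Mbp and carries no test.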
